A study of Mus musculus with 150 samples.

Results

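Mouse lung epithelial cells that carried abundant transcripts of both Scgb1a1 and Sftpc were set against cells that carried abundant Scgb1a1 alone. Gene expression had been measured in single cells captured on Fluidigm C1 chips, microfluidic devices that isolate, lyse and amplify each cell in its own chamber, with 1 chip for each of 2 genotypes, labelled p53-/- and wild type. Per the labels, the mice carried Scgb1a1-CreERTM, a Cre recombinase that tamoxifen switches on in cells expressing Scgb1a1, with a Rosa26-mT/mG or Confetti reporter, and were crossed to p53flox, p53-/- or Super p53 lines. Tamoxifen was given to both genotypes at 250 mg/kg for RNA sequencing. The labels leave unsaid if these cells had been cultured, if the deletion was inherited or induced, or how many animals each chip stands for. Each chip is therefore 1 sample, and every difference below is a description of 2 chips, without a test.

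Cells were chosen by their own Scgb1a1 and Sftpc values in TPM, a relative unit that corrects for transcript length and sums to a fixed total in each cell. Wells with a debris or valve remark and cells in which under 1000 genes reached 1 TPM were left out, which kept 127 cells of 140 single-cell columns. In 95 of these cells Scgb1a1 was above Sftpc. Dual cells had in addition an Sftpc TPM of at least 10000, and club-only cells an Sftpc TPM below 1000. By this rule 31 cells were dual (21 on the chip labelled knockout, 10 on the wild-type chip) and 56 were club-only (25 labelled knockout, 31 wild type), 87 cells in all. A further 8 wild-type cells and 0 cells labelled knockout lay between both limits, and in 32 cells Sftpc was at or above Scgb1a1. The last are called Sftpc-dominant cells here.

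Scgb1a1 encodes the main secretory protein of club cells, the non-ciliated secretory cells of the small airways, which also carry cytochrome P450 and other detoxifying enzymes. Sftpc encodes surfactant protein C and is a defining transcript of alveolar type 2 cells, which make surfactant, store it in lamellar bodies and renew the alveolar lining. Cells positive for both proteins are known from the junction of bronchiole and alveolus in the mouse, where they have been described as bronchioalveolar stem cells. Among alveolar genes, Lamp3 encodes a membrane protein of lamellar bodies, and Lyz2 encodes lysozyme, which type 2 cells and macrophages produce.

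The sequence before the start of 3 alveolar genes that stood higher in dual cells on both chips is given below. Whether it regulates those genes was not tested. These are the 250 bases upstream of the RefSeq start (GRCm38.p6), 5′ to 3′ on the gene's strand, with capitals marking a match to the forkhead motif TGTTTAC in Lamp3, the C/EBP palindrome TTGCGCAA in Slc34a2 and the NKX2-1 core motif CTCAAG in Sftpa1.
Lamp3: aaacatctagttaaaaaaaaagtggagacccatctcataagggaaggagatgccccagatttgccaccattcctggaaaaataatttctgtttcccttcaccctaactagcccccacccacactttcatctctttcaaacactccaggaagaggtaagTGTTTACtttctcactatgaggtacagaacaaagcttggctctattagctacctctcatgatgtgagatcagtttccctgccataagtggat
Slc34a2: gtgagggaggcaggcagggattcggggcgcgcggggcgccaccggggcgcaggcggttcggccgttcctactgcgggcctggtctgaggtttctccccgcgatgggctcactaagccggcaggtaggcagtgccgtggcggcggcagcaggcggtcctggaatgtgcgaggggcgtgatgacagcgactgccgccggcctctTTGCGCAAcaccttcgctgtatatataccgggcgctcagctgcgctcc
Sftpa1: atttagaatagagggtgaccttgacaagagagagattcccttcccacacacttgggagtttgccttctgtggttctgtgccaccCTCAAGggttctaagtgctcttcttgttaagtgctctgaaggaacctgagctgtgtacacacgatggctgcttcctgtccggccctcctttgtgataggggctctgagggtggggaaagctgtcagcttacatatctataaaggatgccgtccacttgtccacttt
The Lamp3 window is chr16:19706366-19706615 on the minus strand, the Slc34a2 window chr5:53049103-53049352 on the plus strand and the Sftpa1 window chr14:41131538-41131787 on the plus strand. All 3 genes are annotated as protein coding in GRCm38. The Slc34a2 window precedes a RefSeq start that lies inside the gene's annotated span, chr5:53038081-53071664. Factors of the forkhead, C/EBP and NKX2-1 families are known regulators of alveolar type 2 genes. Searched on both strands, the motifs were present in 3.17%, 0.164% and 13.3% of 32851 promoter windows of the same length, in the order forkhead, C/EBP and NKX2-1. The motifs and the genes printed were chosen after their matches had been seen. Of 10 alveolar genes that are named below and were past the size threshold on both chips, 8 had an entry in the promoter table, with 10 windows in all. A match to any of the 3 motifs was found in 6 of the 10 windows, 1 window each for Lamp3 and Etv5 (forkhead), Slc34a2 (C/EBP) and Sftpa1, Sfta2 and Elovl1 (NKX2-1). The other windows of Etv5 and Elovl1 and those of Lyz2 and Hc held 0 matches. A match describes letters in a window and not a site in use.

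The label of the genotype was checked first on Trp53, the gene that encodes p53. Trp53 reached 1 TPM in 3 of 21 dual and 8 of 25 club-only cells on the chip labelled knockout, and in 1 of 10 dual and 3 of 31 club-only cells on the wild-type chip. It was above 0 TPM in 5 of 21 dual and 9 of 25 club-only cells labelled knockout, and in 2 of 10 dual and 8 of 31 club-only wild-type cells. Trp53 was thus detected in no smaller share of the cells labelled knockout, so cells are called labelled knockout throughout. The counts are small and wild-type cells had fewer detected genes, so these shares do not settle the genotype. A gene-level TPM also counts exons outside a deleted part, so it checks the label only in part. TPM carries no depth, so the depth per cell is unknown. No 2 cells of a chip had identical values, and the pairwise Pearson r of log2(TPM + 1) over all genes within a chip ranged from 0.339 to 0.649 for cells labelled knockout and from 0.203 to 0.606 for wild-type cells. In the off-chip negative control Sftpc was at 3.22 TPM and Scgb1a1 at 3.72 TPM, with 2 genes at a TPM of at least 1.

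**Figure D1:**
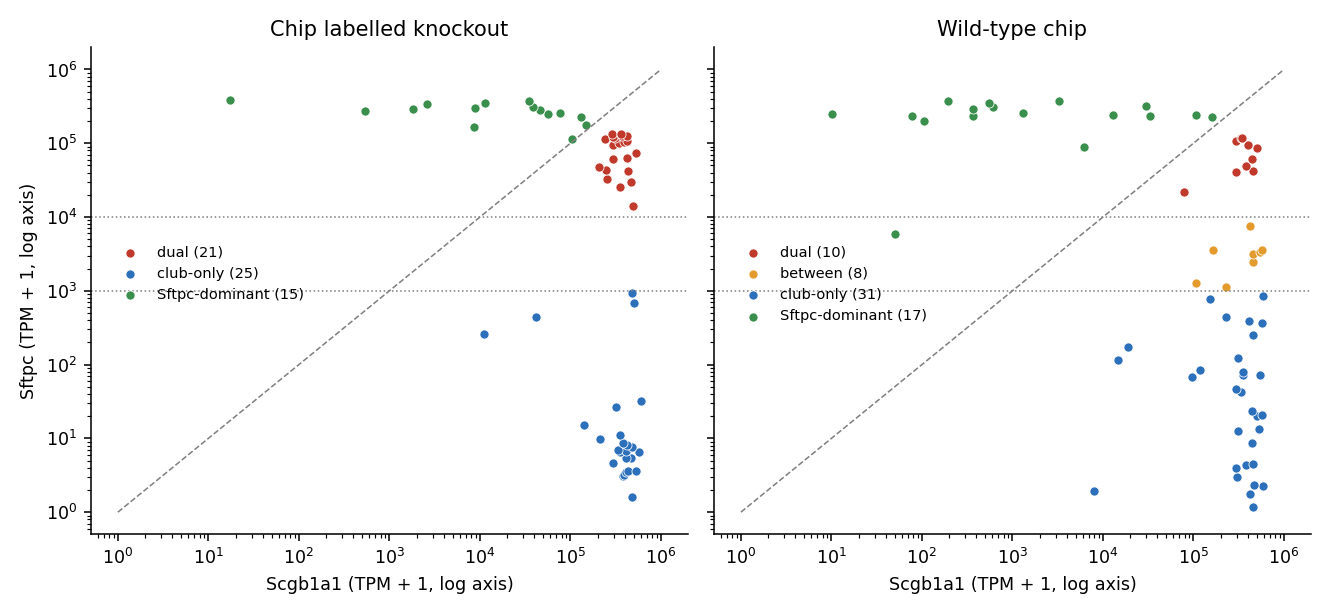
Sftpc against Scgb1a1 in every kept cell (TPM + 1, both axes log), chip labelled knockout left and wild-type chip right; points are cells coloured by class, dotted lines are the Sftpc limits at 1000 and 10000 TPM and the dashed line marks equal values. Dual cells form a group at Sftpc of 14290.2 TPM and above on the left and 21798 TPM and above on the right, and the space between the limits holds 0 cells labelled knockout and 8 wild-type cells.

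Because the rule used Scgb1a1 and Sftpc, their values describe the classes and support nothing further. On the chip labelled knockout Sftpc had a lowest, median and highest value of 14290.2, 96220 and 134074 TPM in dual cells, against 0.58, 5.95 and 926.7 TPM in club-only cells. In wild-type cells the corresponding values were 21798, 73510 and 119240.0 TPM in dual cells, against 0.17, 41.7 and 836.8 TPM in club-only cells. On the wild-type chip the gap between the classes is set by the limits of the rule, and the 8 cells in it were at 1136 to 7553 TPM. On the chip labelled knockout 0 cells lay between the limits, so the rule removed none there. Scgb1a1 was similar in both classes, with medians of 348983 TPM in dual and 407527 TPM in club-only cells labelled knockout, and 361644 TPM in dual and 380677 TPM in club-only wild-type cells. Within dual cells Sftpc stood at 2.88% to 46.7% of Scgb1a1 on the chip labelled knockout and at 9.34% to 36.3% on the wild-type chip.

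Dual cells made up 45.7% of the 46 Scgb1a1-dominant cells labelled knockout (exact 95% binomial interval 30.9 to 60.99%) and 20.4% of the 49 wild-type ones (10.2 to 34.3%). The difference was 25.2 percentage points, and it hangs on the limit of 10000 TPM. Club-only cells, below 1000 TPM, made up 54.3% of the Scgb1a1-dominant cells labelled knockout and 63.3% of the wild-type ones. The binomial intervals cover counting error only and take the cells of a chip as independent. Chip and genotype cannot be told apart. The cells between both limits were 16.3% of the wild-type cells (7.32 to 29.7%) and 0% of the cells labelled knockout (upper bound 7.71%).

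Sftpc transcripts at a trace level were general. Sftpc reached 1 TPM in 24 of 25 club-only cells labelled knockout and 28 of 31 wild-type ones. In 2 wild-type wells left out for few genes, with 99.3% and 99.5% of their TPM in ERCC spike-ins (synthetic RNAs added at lysis), it stood at 56.9 and 44.6 TPM. Set against the spike-ins of the same well, Sftpc in dual cells amounted to at least 201709 TPM (per 1000000 of ERCC TPM) on the chip labelled knockout and at least 88562 on the wild-type chip, against 57.3 and 44.8 in those 2 nearly empty wells and at most 21498 and 8783 in club-only cells of the same chips. Since Sftpc chose the classes, this is a description of the rule on another scale.

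Alveolar genes that the rule did not use were higher in dual cells on both chips. Over 10175 genes tested on the chip labelled knockout, 90 were past the size threshold in the higher direction, 0.885% of those tested, and 71 in the lower direction (0.698%). On the wild-type chip 368 of 11844 genes were past it in the higher direction (3.11%) and 5 in the lower (0.0422%), which were 1810010H24Rik, Lamtor5, Pir, Cct8 and Ddrgk1. A gene was tested where at least 10% of the cells of either class had a TPM of at least 1. It was past the size threshold where mean log2(TPM + 1) differed by at least 2, dual minus club-only, with 1 TPM reached in 30% or more of the class with the higher mean. In the higher direction 48 genes passed on both chips, 0.521% of the 9214 tested on both, and Sftpc is among them; in the lower direction 0 genes did.

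Of the 33 genes in the alveolar type 2 lists without Sftpc, 30 were tested on the chip labelled knockout and 22 of them were past the size threshold in the higher direction, with a median difference of 3.21. Among wild-type cells 29 were tested and 21 were past it, with a median difference of 2.68. Over all tested genes the median difference was 0.05 for cells labelled knockout and 0.34 for wild-type cells. In the lower direction 0 alveolar members passed on either chip, and 18 members passed in the higher direction on both. These members passed a filter on low values in part through the class where they are high, and earlier results of these data were known when the lists were chosen.

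Lyz2 had the largest difference after Sftpc on both chips. On the chip labelled knockout it ranged from 0.77 to 14274 TPM in dual cells with a median of 3360.5 TPM, against 0 to 18282 TPM in club-only cells with a median of 0.27 TPM. In wild-type cells it ranged from 1.08 to 13421 TPM with a median of 2679 TPM in dual cells, against 0 to 1819 TPM with a median of 1.82 TPM in club-only cells. The classes overlapped on both chips: Lyz2 was at 1000 TPM or more in 16 of 21 dual and 4 of 25 club-only cells labelled knockout, and in 6 of 10 dual and 2 of 31 club-only wild-type cells. Mean log2(TPM + 1) was 10.4 ± 3.63 in dual and 3.13 ± 4.82 in club-only cells labelled knockout (SD over 21 and 25 cells), a difference of 7.29, and the wild-type difference was 6.75. The near-identical neighbour Lyz1 could share reads with Lyz2, which leaves the split between them uncertain.

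Lamp3 reached 1 TPM in 17 of 21 dual and 1 of 25 club-only cells labelled knockout, and in 6 of 10 dual and 1 of 31 club-only wild-type cells. It was at 10 TPM or more in 14 of 21 dual cells labelled knockout (66.7%, exact interval 43.03 to 85.4%) and in 0 of 25 club-only cells, a count that allows up to 13.7%. On the wild-type chip it was at 10 TPM or more in 5 of 10 dual cells (50%, 18.7 to 81.3%) and in 1 of 31 club-only cells (3.23%, 0.0816 to 16.7%). Its medians were 39.96 TPM in dual and 0 TPM in club-only cells labelled knockout, and 15.7 TPM in dual and 0 TPM in club-only wild-type cells, with highest dual values of 376.3 and 369.9 TPM. The differences of mean log2(TPM + 1) were 4.54 for cells labelled knockout and 3.63 for wild-type cells.

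Napsa, which encodes an aspartic protease that processes pro-surfactant proteins, had medians of 182.9 TPM in dual and 0 TPM in club-only cells labelled knockout, and 122.2 TPM in dual and 0 TPM in club-only wild-type cells. It reached 10 TPM in 15 of 21 dual and 2 of 25 club-only cells labelled knockout, and in 8 of 10 dual and 0 of 31 club-only wild-type cells. Its highest values were 749.9 TPM in dual and 989.3 TPM in club-only cells labelled knockout, and 366.3 and 1.3 TPM in wild-type ones. Slc34a2, a phosphate transporter of the type 2 cell surface, was at 57.2 to 609.3 TPM in all 21 dual cells labelled knockout, against 0 to 131.5 TPM in club-only cells. In wild-type cells it was at 0.39 to 626.1 TPM in dual cells, against 0 to 58.9 TPM in club-only cells. Its differences of mean log2(TPM + 1) were 6.63 for cells labelled knockout and 4.65 for wild-type cells, and 5.15 and 5.57 for Napsa.

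Surfactant protein genes were not silent in club-only cells. Sftpa1, which encodes surfactant protein A, was at 1 TPM or more in 23 of 25 club-only cells labelled knockout and 26 of 31 wild-type ones, with medians of 4936 TPM in dual and 693.6 TPM in club-only cells labelled knockout, and 6323 TPM in dual and 729.5 TPM in club-only wild-type cells. Its lowest value in dual cells was 2232.5 TPM on the chip labelled knockout and 3151 TPM on the wild-type chip, above the club-only median in each. The classes overlapped, with highest club-only values of 8263 and 15616 TPM, against 16444 and 13543.5 TPM in dual cells. Hc, which encodes complement component C5, was at medians of 28.1 TPM in dual and 0 TPM in club-only cells labelled knockout, and 116.6 TPM in dual and 0 TPM in club-only wild-type cells. Sfta2 differed by 3.91 in cells labelled knockout and 2.96 in wild-type cells, Lgi3 by 3.44 and 2.91, and Elovl1, a fatty acid elongase, by 2.89 and 3.46. Etv5, a transcription factor that maintains type 2 cells, differed by 2.99 and 2.98 in the same order.

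**Figure D2:**
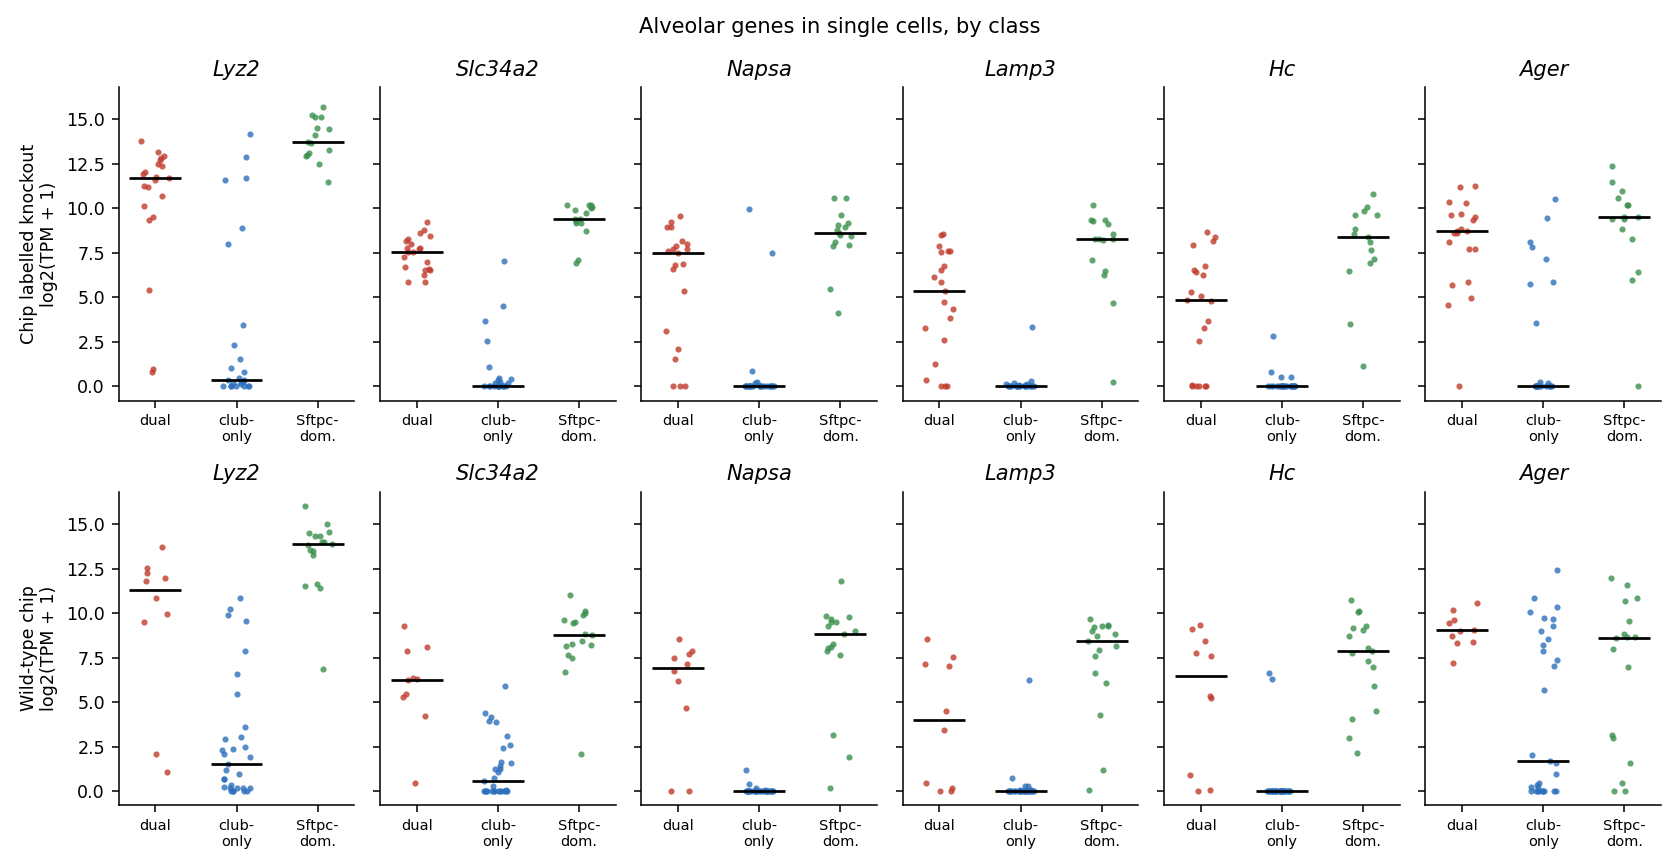
Level of 6 alveolar genes in single cells as log2(TPM + 1), chip labelled knockout in the upper row and wild-type chip in the lower; each point is a cell, columns are dual, club-only and Sftpc-dominant cells, and bars are class medians. Dual cells lie mostly above club-only cells, with some dual cells near 0 for Lamp3, Napsa and Hc and all 21 dual cells labelled knockout at 57.2 TPM or more for Slc34a2.

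Genes outside the type 2 lists shared this direction on both chips. Rnase4, a secreted ribonuclease, differed by 5.93 in cells labelled knockout and 6.55 in wild-type cells, and it overlaps Ang on the genome, so reads of both could be mixed. Cldn18, a claudin of alveolar tight junctions, differed by 5.50 and 4.74. Ager, the receptor known as RAGE and a marker of flat alveolar type 1 cells, differed by 5.73 and 4.74 and was at 10 TPM or more in 20 of 21 dual and 8 of 25 club-only cells labelled knockout, and in 10 of 10 dual and 14 of 31 club-only wild-type cells. The alveolar type 1 list as a whole did not share this: of 11 tested members Ager alone was past the threshold in the higher direction and Pdpn alone in the lower for cells labelled knockout, and of 12 Ager alone in the higher and 0 in the lower for wild-type cells, with median differences of 0.58 and 0.57. Of all tested genes, 0.885% and 3.11% were past it in the higher and 0.698% and 0.0422% in the lower direction. Aqp5 differed by 1.13 and 1.42, Akap5 by 1.05 and 0.75 and Col4a3 by 0.58 and 0.75, all short of the threshold. Pdpn, another type 1 marker, differed by -2.18 in cells labelled knockout, where 13 of 21 dual and 19 of 25 club-only cells had a TPM of at least 1, and by -0.70 in wild-type cells. The type 1 markers Ager, Hopx, Pdpn, Aqp5 and Rtkn2 together summed to medians of 886.9 TPM in dual and 736.8 TPM in club-only cells labelled knockout, and 689.5 TPM in dual and 301.2 TPM in club-only wild-type cells. Ager was not particular to dual cells. It was at 10 TPM or more in 14 of 15 Sftpc-dominant cells labelled knockout and 11 of 17 wild-type ones, with medians of 743.3 and 391.7 TPM. The medians in dual cells were 418.7 and 521.6 TPM.

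MHC class II genes, which present antigen and which type 2 cells express, were higher for their leading members. Cd74, the invariant chain, had medians of 382.0 TPM in dual and 0.17 TPM in club-only cells labelled knockout, and 179.5 TPM in dual and 0.33 TPM in club-only wild-type cells, with differences of 5.39 and 5.14. H2-Aa was at 1 TPM or more in 15 of 21 dual and 2 of 25 club-only cells labelled knockout, and in 5 of 10 dual and 0 of 31 club-only wild-type cells. Of 7 tested members 3 were past the threshold in cells labelled knockout, with H2-Ab1 at 3.95, H2-Eb1 at 1.77 and H2-DMa at 0.78. For wild-type cells 2 of 6 were, with H2-Ab1 at 1.86, H2-Eb1 at 1.25 and H2-DMa at 1.30. The shares of all tested genes past it in the higher direction were 0.885% and 3.11%. The highest class II values were in the club-only cell of capture site 3 on the chip labelled knockout, with Cd74 at 9536 TPM, which also carried leukocyte transcripts and is described further on. Without that cell the differences of Cd74 and H2-Aa on this chip were 5.84 and 4.72.

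Lipid synthesis genes were higher by a median of 0.61 in dual cells labelled knockout and 1.37 in wild-type dual cells, against medians over all genes of 0.05 and 0.34. Past the threshold were 4 of 17 tested members on the chip labelled knockout (Scd1, Lpcat1, Fasn and Acsl4) and 3 of 18 on the wild-type chip, among them Scd1 and, at 2.12, Idi1 of sterol synthesis. Of all tested genes 0.885% and 3.11% were past it in the higher direction. Scd1, the stearoyl-CoA desaturase, was the only member of the list past it on both chips, at 5.13 and 2.11. Lpcat1, which remodels surfactant phosphatidylcholine, differed by 4.74 in cells labelled knockout and 1.91 in wild-type cells, Fasn by 2.20 and 1.33, Acsl4 by 2.11 and 1.61, and Scd2 by 1.61 and 1.52. Scd1 had medians of 214.0 TPM in dual and 1.70 TPM in club-only cells labelled knockout, and 49.2 TPM in dual and 1.5 TPM in club-only wild-type cells. With wild-type club-only cells kept only within the dual cells' range of detected genes, 1 of 18 members was past the threshold, with a median of 1.15. Scd1 at 1.33 was then short of it, with Lpcat1 at 1.41, Scd2 at 1.29, Fasn at 0.94 and Acsl4 at 0.13.

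**Figure D3:**
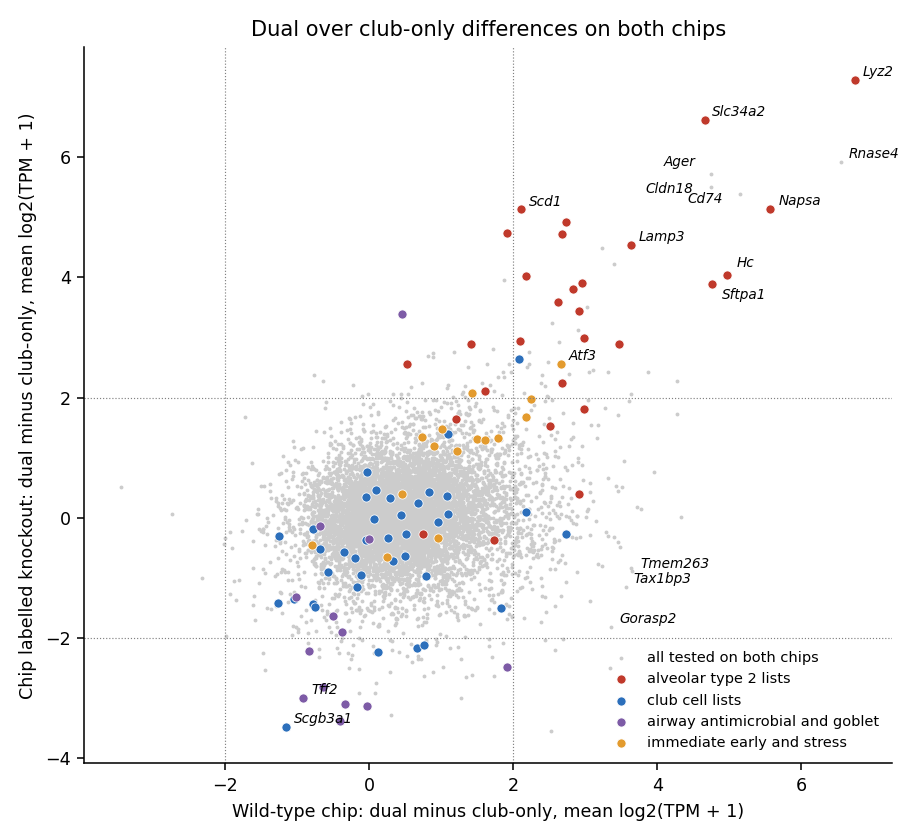
Difference of mean log2(TPM + 1), dual minus club-only, for each gene tested on both chips, with the chip labelled knockout on the vertical and the wild-type chip on the horizontal axis; colours mark gene lists and dotted lines the size threshold of 2. Most alveolar type 2 genes lie in the upper right, airway genes such as Scgb3a1 and Tff2 lie low on the vertical axis only, and 0 genes pass the threshold in the lower direction on both chips.

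Club cell genes were detected in dual cells, with more members lower than higher on the chip labelled knockout and the reverse on the wild-type chip. Of the members tested, 12 had a positive and 26 a negative difference in cells labelled knockout, and 22 and 17 in wild-type cells. Of the 39 genes in the club lists without Scgb1a1, 38 were tested for cells labelled knockout, of which Clic3 was past the threshold in the higher direction and 4 were in the lower, with a median difference of -0.35. Those 4 were Scgb3a1 at -3.48, Chad at -2.24, Gsto1 at -2.17 and Sult1d1 at -2.11. The shares of all tested genes were 0.885% higher and 0.698% lower on that chip, and 3.11% and 0.0422% on the wild-type chip. All 39 were tested for wild-type cells, of which 3 were past it in the higher direction (Cd200 at 2.73, Scgb1c1 at 2.18 and Clic3 at 2.08) and 0 in the lower, with a median of 0.12. The sign of that wild-type median was not stable: it was -0.47 over cells with at least 2000 detected genes, and -0.72 with club-only cells kept only within the range of detected genes of the dual cells, where 2 of 15 secretory and 2 of 24 detoxification members were past the threshold in the lower direction and 2 secretory members in the higher. Cyp2f2, a cytochrome P450 of club cells, was at medians of 10205 TPM in dual and 11980.4 TPM in club-only cells labelled knockout, and 9045 TPM in dual and 14702 TPM in club-only wild-type cells, and its ranges overlapped in both pairs. At least 5 of the 6 club markers Scgb3a2, Cyp2f2, Cbr2, Aldh1a1, Cldn10 and Hp were at 10 TPM or more in 21 of 21 dual and 24 of 25 club-only cells labelled knockout, and in 9 of 10 dual and 27 of 31 club-only wild-type cells. Clic3, a chloride channel protein, was the list's only member past the threshold on both chips, higher by 2.64 and 2.08. Cldn10 differed by 0.43 and 0.83 and Cyp2b10 by 1.39 and 1.09, short of the threshold. Aldh1a1 differed by -0.90 and -0.58, Por by -0.52 and -0.68, Adh7 by -1.43 and -0.78, Gabrp by -1.36 and -1.04 and Pigr, the transporter of secretory antibodies, by -1.41 and -1.27, each in the order labelled knockout and wild type.

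Several genes of larger airways were lower in dual cells on the chip labelled knockout. Of 16 tested genes in the airway antimicrobial and goblet list, 7 were past the threshold in the lower direction there (Bpifb1, Reg3g, Bpifa1, Tff2, Lypd2, Ltf and Agr2) and Lcn2, at 3.39, in the higher, with a median difference of -1.76. On the wild-type chip 0 of 13 passed in either direction, with a median of -0.40, and the difference between chips was not tested. Of all tested genes 0.698% passed in the lower direction on the chip labelled knockout. On the wild-type chip 0.0422% did, only 5 genes in all, so a count of 0 there says little. In the higher direction the shares were 0.885% and 3.11%. Scgb3a1, a secretoglobin of larger airways from the club list, was at 1000 TPM or more in 10 of 21 dual and 19 of 25 club-only cells labelled knockout, and in 3 of 10 dual and 12 of 31 club-only wild-type cells. Its medians were 498.9 TPM in dual and 24899 TPM in club-only cells labelled knockout, and 24.0 TPM in dual and 67.1 TPM in club-only wild-type cells. Its difference of mean log2(TPM + 1) was -3.48 in cells labelled knockout and -1.16 in wild-type cells. Within the dual cells labelled knockout Scgb3a1 ran from 0 to 47209 TPM and Bpifa1, an airway antimicrobial protein, from 0.22 to 97172 TPM, so the class held cells with and without these transcripts.

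Among the other airway genes, Tff2, a trefoil peptide of mucous cells, differed by -3.01 in cells labelled knockout and -0.92 in wild-type cells. Agr2, a disulfide isomerase needed for mucin production, differed by -2.23 and -0.84, Lypd2 by -2.82 and -0.65, Foxa3 by -1.63 and -0.50 and Gp2 by -1.31 and -1.03. Tff2 was at 1 TPM or more in 10 of 21 dual and 19 of 25 club-only cells labelled knockout, and in 3 of 10 dual and 13 of 31 club-only wild-type cells.

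**Figure D4:**
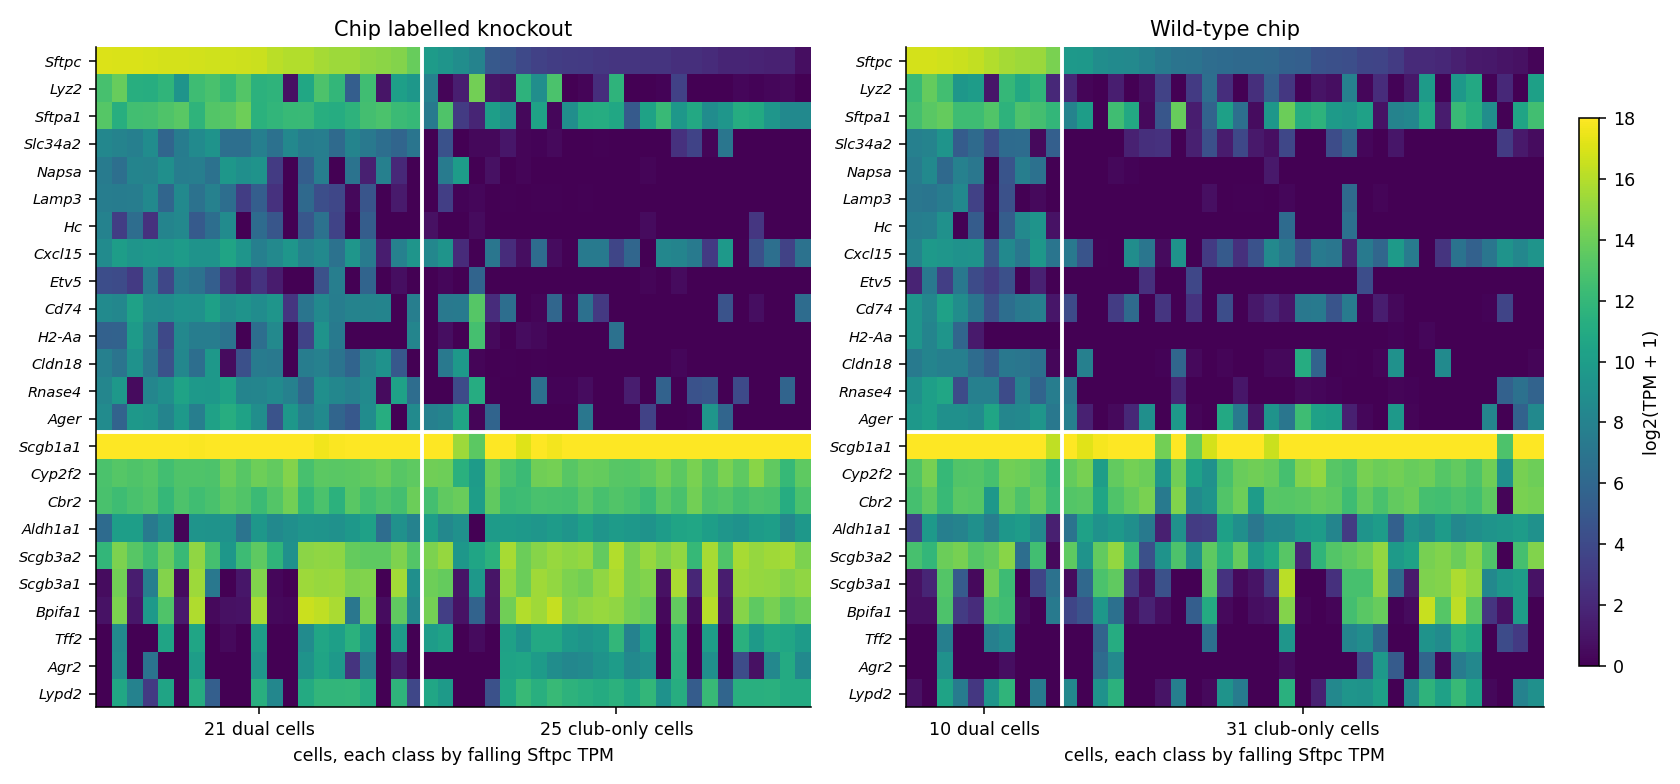
Level of 14 alveolar and 10 airway genes, as log2(TPM + 1), in each dual and club-only cell, chip labelled knockout left and wild-type chip right; columns are cells in order of falling Sftpc within a class, vertical white lines part dual from club-only cells and horizontal ones alveolar from airway genes. Scgb1a1, Cyp2f2 and Cbr2 run across both classes, most alveolar genes are brighter in dual cells while Sftpa1, Cxcl15, Lyz2, Cd74 and Ager also appear in some club-only cells, and Scgb3a1, Bpifa1, Tff2, Agr2 and Lypd2 are present in some dual cells and at or near 0 in others.

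Dual cells varied in how many alveolar genes accompanied Sftpc. Of 10 type 2 markers (Sftpa1, Sftpb, Sftpd, Lamp3, Abca3, Napsa, Slc34a2, Lyz2, Cxcl15 and Hc), dual cells labelled knockout had 5 to 10 at 10 TPM or more with a median of 9, against 1 to 6 with a median of 4 in club-only cells. Wild-type dual cells had 5 to 10 with a median of 9, against 1 to 7 with a median of 4 in club-only cells. Lamp3 and Lyz2 were both at 10 TPM or more in 14 of 21 dual and 0 of 25 club-only cells labelled knockout, and in 5 of 10 dual and 1 of 31 club-only wild-type cells. Both genes were under 10 TPM in 2 dual cells labelled knockout (capture sites 13 and 15) and 2 wild-type dual cells (capture sites 50 and 58). The cell of site 15 had Sftpc at 62405 TPM, Slc34a2 at 342.9 TPM and Napsa at 0.

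Across dual cells, those with more Sftpc also tended to have more Lamp3. Pearson r of log2(TPM + 1) was 0.80 and Spearman rho 0.82 over 21 dual cells labelled knockout, and 0.83 and 0.80 over 10 wild-type dual cells; r was 0.75 and 0.80 without the 2 cells farthest from the median Sftpc. For Lyz2 r was 0.40 and rho 0.41 in dual cells labelled knockout, and 0.54 and 0.56 in wild-type ones. Scgb3a1 gave r of -0.26 and -0.12 in the same order, and Cyp2f2 -0.35 and 0.10. For the other alveolar genes r was 0.67 and 0.61 (Napsa), 0.40 and 0.55 (Slc34a2), 0.30 and 0.54 (Sftpa1) and 0.59 and 0.24 (Hc). Sftpc chose these cells, the cells of a chip share a library preparation, and their values share a fixed total per cell. These coefficients are therefore descriptions over 8 genes examined and support nothing further.

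Relative to Sftpc within the same cell, the median ratios of Slc34a2, Lyz2 and Napsa in dual cells lay within 1 of those in Sftpc-dominant cells (log2). Of all alveolar genes so compared, 14 of 26 labelled knockout and 10 of 24 wild-type ones did, as given below. The rule set the classes by Sftpc and Scgb1a1, so ratios to either describe the classes and support nothing further. The ratios were taken of TPM + 1, so where a gene is low or undetected, as Lamp3 was in some dual cells, the ratio follows the Sftpc level. The comparison used Sftpc-dominant cells with an Sftpc TPM of at least 10000, 15 labelled knockout and 16 wild type. The median log2 ratio of Slc34a2 to Sftpc was -8.73 in dual and -8.63 in Sftpc-dominant cells labelled knockout, and -9.16 in dual and -8.91 in Sftpc-dominant wild-type cells. For Lyz2 it was -4.49 in dual and -4.11 in Sftpc-dominant cells labelled knockout, and -4.59 in dual and -4.22 in Sftpc-dominant wild-type cells. For Napsa it was -9.25 in dual and -9.28 in Sftpc-dominant cells labelled knockout, and -9.32 in dual and -9.01 in Sftpc-dominant wild-type cells. Lamp3 was lower relative to Sftpc in dual cells, at -11.0 against -9.65 in Sftpc-dominant cells labelled knockout, and at -12.0 against -9.59 in wild-type ones. The quartiles of these ratios overlapped for each of the 4 genes on both chips.

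Sftpa1 leaned the other way, at -3.77 in dual and -4.35 in Sftpc-dominant cells labelled knockout, and at -3.20 in dual and -4.23 in Sftpc-dominant wild-type cells. Over the alveolar genes at 1 TPM or more in 50% or more of the cells of both classes, the median difference of these ratios was 0.44 over 26 genes on the chip labelled knockout, of which 14 lay within 1 on the log2 scale. On the wild-type chip it was -0.03 over 24 genes, of which 10 lay within 1.

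Relative to Scgb1a1, also a gene of the rule, club genes leaned lower in dual than in club-only cells. On each chip 9 genes were positive and 23 negative. Cyp2f2 stood at a median log2 ratio to Scgb1a1 of -5.10 in dual and -4.89 in club-only cells labelled knockout, and -5.09 in dual and -4.79 in club-only wild-type cells. For Cbr2, a carbonyl reductase, it was -5.62 in dual and -5.71 in club-only cells labelled knockout, and -5.45 in dual and -5.34 in club-only wild-type cells. Over 32 club genes on each chip the median difference was -0.44 for cells labelled knockout and -0.25 for wild-type cells, with 20 and 21 genes within 1. Outside that range was Scgb3a1, whose ratio to Scgb1a1 differed by -6.11 in cells labelled knockout and by -2.80 in wild-type ones.

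The median number of detected genes was higher in dual than in club-only cells, by more on the wild-type chip. The number of genes at a TPM of at least 1 ranged from 2303 to 5412 with a median of 4032 in dual cells labelled knockout, against 2316 to 5375 with a median of 3665 in club-only cells, and the classes overlapped over nearly their whole range. In wild-type cells it ranged from 2885 to 5245 with a median of 3758 in dual cells, against 1201 to 4231 with a median of 2888 in club-only cells. The differences of medians were 367 and 870 genes, set against SDs over dual cells of 783 and 811. Sftpc-dominant cells had medians of 3196 genes labelled knockout and 2633 wild type, and the 8 wild-type cells between both limits had a median of 2786.

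Gene TPM relative to spike-in TPM, a relative measure of RNA per well if every well received the same spike-in amount, did not share this order on the chip labelled knockout. There it had a median of 15.5 in dual cells, 16.98 in club-only and 5.50 in Sftpc-dominant cells, and the difference of median log2 ratios, dual minus club-only, was -0.13. Among wild-type cells it had a median of 11.4 in dual cells, 7.99 in club-only and 3.52 in Sftpc-dominant cells, with a log2 difference of 0.51. The SD of the log2 ratio over dual cells was 0.47 for cells labelled knockout and 0.78 for wild-type ones, each larger than the difference on its own chip. Per the labels, chambers holding doublets were removed after inspection by eye, and no doublet caller was run here. Whether a captured pair of cells or transferred RNA contributed to dual cells was not tested.

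**Figure D5:**
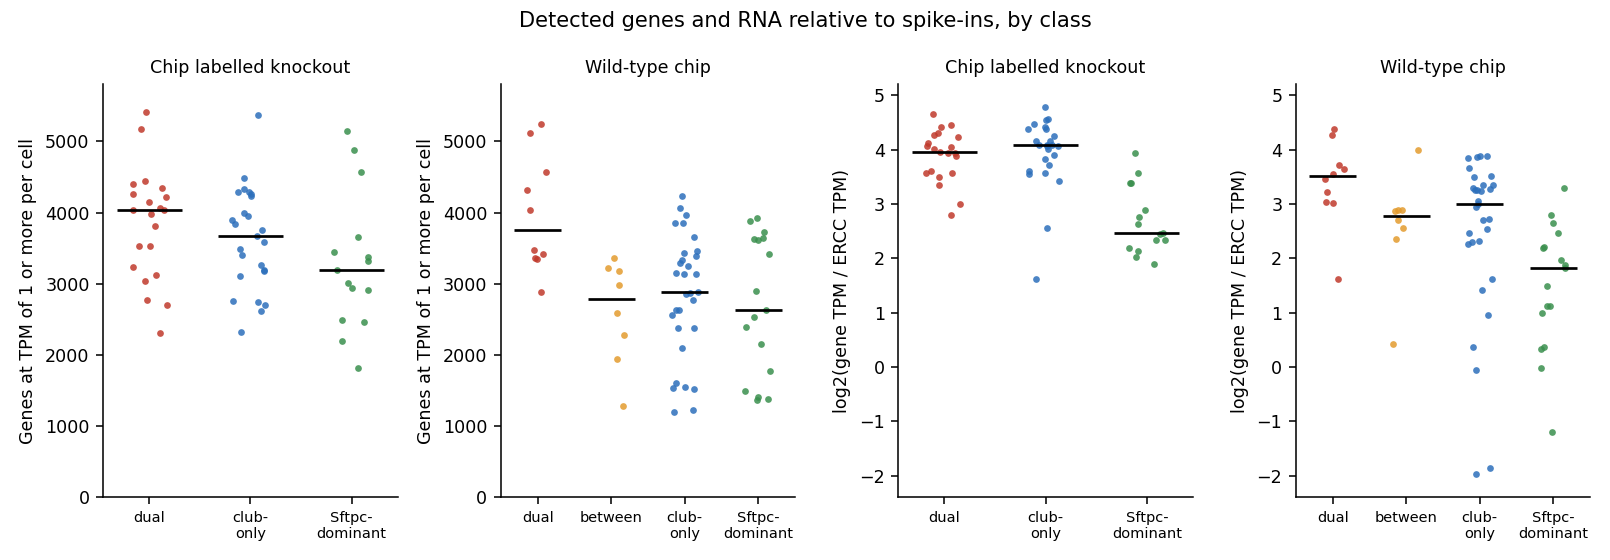
Genes at a TPM of at least 1 per cell (2 left panels) and log2 of gene TPM over ERCC TPM (2 right panels) by class, chip labelled knockout left of the wild-type chip in each pair; points are cells and bars medians. Dual cells labelled knockout overlap club-only cells in both measures, with medians of 4032 and 3665 genes, and wild-type dual cells lie above most club-only cells in detected genes, with medians of 3758 and 2888.

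On the wild-type chip the number of detected genes moved with the counts of genes past the threshold. With club-only cells kept only where their detected genes lay within the range of the dual cells, 16 of 31 remained. Then 200 genes were past the threshold in the higher direction and 67 in the lower, and the club list median was negative, as given above. Of the alveolar members 16 were past it in the higher direction, with a median of 2.08. Lyz2 then differed by 7.23, Slc34a2 by 4.88, Napsa by 5.59 and Lamp3 by 3.46, while Scd1 at 1.33 and Clic3 at 1.22 were no longer past the threshold. On the chip labelled knockout this restriction left all 25 club-only cells in place.

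Immediate early and stress genes, which dissociation and handling are known to induce, were past the threshold in the higher direction for 2 of 15 tested members in cells labelled knockout and 3 of 17 in wild-type cells, against 0.885% and 3.11% of all genes. Their median differences were 1.30 and 1.00, against 0.05 and 0.34 over all tested genes. Atf3, a stress-response transcription factor, was past it on both chips, at 2.56 and 2.66. Egr1 differed by 1.98 and 2.25, Dusp1 by 1.67 and 2.17, Fosb by 2.08 and 1.43 and Fos by 1.32 and 1.79. Within the matched range of detected genes the wild-type median was 0.31, Atf3 differed by 1.71 and 0 of 17 members were past the threshold. Whether handling had a part in this was not tested.

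Among lung epithelial transcription factors, 2 of 19 tested genes were past the threshold for cells labelled knockout (Etv5 and Elf3) and 4 of 19 for wild-type cells (Id2, Etv5, Foxp1 and Ehf). Over all tested genes the shares in the higher direction were 0.885% and 3.11%. The list medians were 0.37 and 1.01, against 0.05 and 0.34 over all tested genes. Within the matched range of detected genes the wild-type median was 0.41, and Foxp1 at 1.89 and Ehf at 0.36 were no longer past the threshold. Beside Etv5, Id2 differed by 1.96 and 3.04, Foxp1 by 1.31 and 2.80, Ehf by 1.06 and 2.32 and Elf3 by 2.01 and 1.16. The list associated with bronchioalveolar stem cells gave a median of 0.05 over 7 genes labelled knockout, of which Ly6a, at -2.56, was past the threshold in the lower direction, and 0.91 over 6 wild-type genes, of which H2-K1 was past it in the higher. In it H2-K1 differed by 1.43 and 2.60, Gata6 by 0.93 and 1.98, Cd24a by 0.45 and 0.79, Igf1r by -0.50 and -0.61 and Itga6 by -0.53 and -0.32. Within the matched range of detected genes H2-K1 differed by 1.69 in wild-type cells, and 0 of 6 members were past the threshold.

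The transitional alveolar list, genes of type 2 cells on the way to type 1, had medians of 0.04 over 11 tested genes labelled knockout and 0.26 over 10 wild-type ones, with Hbegf past the threshold in the higher direction for cells labelled knockout and Lgals3, at 2.15, for wild-type cells. Hbegf differed by 2.75 and 0.88, Krt7 by 1.79 and 0.91, Krt8 by 0.27 and 0.15, Sfn by -1.08 and -0.34 and Krt19 by -0.67 and -1.27. Of the cell cycle list 0 of 12 tested genes labelled knockout and 0 of 10 wild-type genes were past the threshold, with medians of -0.12 and 0.28. For both lists the shares of all tested genes were 0.885% and 3.11% in the higher and 0.698% and 0.0422% in the lower direction. In the cell cycle list Mcm3 differed by -0.51 and -0.25, Mcm5 by 0.21 and 0.21, Mcm6 by 0.10 and 0.64, Tyms by 0.14 and 0.37 and Pcna by 0.07 and 0.77.

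The endothelial markers Pecam1, Cdh5 and Cldn5, the fibroblast markers Col1a1, Col3a1 and Dcn, the basal markers Trp63 and Krt5 and the neuroendocrine markers Calca and Chga were all under 1 TPM in all 87 cells. Other listed endothelial and fibroblast genes, among them Kdr, Esam and Sparc, were detected in some cells, as given below. Ciliated and alveolar type 1 markers were detected in both classes. Of the leukocyte markers Ptprc, Cd52, Coro1a and Laptm5, only Laptm5 was detected in dual cells, at a highest sum of 6.54 TPM labelled knockout and 0 in wild-type ones. In club-only cells their sum reached 10 TPM in 1 of 25 labelled knockout and 0 of 31 wild-type cells. That club-only cell, of capture site 3, summed to 2200 TPM for these markers, with Lyz2 at 18282 TPM and Scgb1a1 at 11170.2 TPM. Without it 83 genes were past the threshold in the higher and 77 in the lower direction on that chip, with an alveolar list median of 3.32.

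The macrophage markers Chil3, Marco, Mrc1 and Ear2 summed to at least 10 TPM in 2 of 21 dual and 1 of 25 club-only cells labelled knockout and in 0 wild-type cells, with a highest sum of 46.4 TPM in dual cells. The ciliated markers Foxj1, Tppp3, Ccdc113, Rsph1 and Dynlrb2 summed to at least 10 TPM in 9 of 21 dual and 4 of 25 club-only cells labelled knockout, and in 3 of 10 dual and 4 of 31 club-only wild-type cells. Their highest sums were 362.9 TPM in dual and 2936.9 TPM in club-only cells labelled knockout, and 173.3 TPM in dual and 2219.6 TPM in club-only wild-type cells. Foxj1, Ccdc113 and Rsph1 were under 1 TPM in all dual cells. Of the listed genes of these other types, 0 were past the size threshold in either direction on either chip. Named for completeness, Dynlrb2 differed by 0.04 and 0.99, Sntn by -0.29 and -0.25, Ctss by 0.40 and 0.55, Cd68 by -0.47 and -0.22, Esam by 0.66 and 0.46, Kdr by 0.11 and 1.29 and Sparc by 1.72 and 1.34. Kdr reached 1 TPM in 7 of 21 dual and 6 of 25 club-only cells labelled knockout, and in 7 of 10 and 9 of 31 wild-type ones. In the same order Esam reached it in 4 of 21, 0 of 25, 1 of 10 and 0 of 31 cells. For Sparc the counts were 9 of 21, 2 of 25, 5 of 10 and 3 of 31.

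The largest disagreements between the chips were 3 genes outside the lists. Tmem263 differed by -0.89 in cells labelled knockout and 3.65 in wild-type cells, Tax1bp3 by -1.15 and 3.56 and Gorasp2, a Golgi stacking protein, by -1.82 and 3.36. For Gorasp2 5 of 21 dual and 15 of 25 club-only cells labelled knockout had a TPM of at least 1, and 8 of 10 dual and 9 of 31 club-only wild-type cells did. These differences between chips were not tested, and chip and genotype cannot be told apart.

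The 8 wild-type cells between both limits, with Sftpc at 1136 to 7553 TPM, had 3 to 8 of the 10 type 2 markers at 10 TPM or more with a median of 5, and all 6 club markers in each cell. Their Lyz2 ranged from 0 to 352.1 TPM with a median of 4.96 TPM, and their Lamp3 from 0 to 89.9 TPM with a median of 8.08 TPM. In Sftpc-dominant cells Scgb1a1 was at 10000 TPM or more in 9 of 15 labelled knockout and 5 of 17 wild-type cells, while at least 5 club markers were present in 4 of 15 and 2 of 17.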

How the data were processed

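Single-cell expression was deposited as TPM values, 1 table per genotype, which the authors made before deposit; the submitters' processing notes name RSEM 1.2.20, Bowtie 1.1.1 and the GRCm38 build. TPM carries no read counts, so no count model was used. Values from separate tables were set side by side, and expression differences were taken only within a table; the share of dual cells alone was compared between the chips. The bulk libraries and 2 samples labelled knockout without a matching column are not used here.

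The 92 ERCC rows were left out of the 31175 genes. Differences are of mean log2(TPM + 1) with a pseudocount of 1, dual minus club-only, and understate changes of low genes; SDs are over cells. With 1 chip per genotype and no animal named, no test was run and no p-value is given. Shares have exact binomial intervals at 95%, counting error only. TPM sums to a fixed total, so a change in Sftpc shifts other genes; a rescaling is among the alternatives.

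Named genes are Scgb1a1, Sftpc, Lamp3, Lyz2 and Trp53, up to 10 per direction ranked by the smaller of their differences on the 2 chips, among genes past the size threshold on both chips, up to 5 per list, and 3 that differ most between chips; other genes were named after their values were seen. A few list members are not reported here. The members and the 20 gene lists were chosen with earlier results of these data known. The procedure was run on simulated data with shifts larger than the threshold. Those data held only genes detected in most club-only cells, with the spread between cells capped below that of many genes here. The run checks the calculation and does not measure false calls among low or variable genes. Python 3.11.15 with pandas 2.3.3, numpy 2.4.6 and scipy 1.17.1 was used.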

Additional observations from a re-analysis of the deposited data

Results flagged for a closer look

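Each of 9 cell measures was examined in the 2 wild-type classes of 4 to 10 cells, dual cells and cells between both limits, which made 18 combinations; the classes of the chip labelled knockout were too large for this check. A cell was set apart from the rest of its class in 7 combinations. The rule sets apart about 1 in 20 where values are normally distributed, which TPM, percentages and marker counts need not be. The 7 therefore cannot be set against that rate. The dual cell of capture site 50 accounted for 5 of the 7, which are measures of 1 cell and not independent. Its Scgb1a1 was 79327 TPM, its log2 ratio of gene to spike-in TPM 1.61, its mitochondrial share 13.2%, its club markers at 10 TPM or more 4 of 6, and its median log2(TPM + 1) over the club lists 0.99. Without single dual cells the wild-type alveolar list median stayed between 2.44 and 2.96. Among the wild-type cells between both Sftpc limits, site 13 stood apart with Sftpc at 7553 TPM and site 4 with a log2 gene to spike-in ratio of 0.43.

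Of 174 list genes tested on both chips, 44 had differences of opposite sign. Past the size threshold on at least 1 chip and at 1 or more in size on both were Lgals3, at -1.67 in cells labelled knockout and 2.15 in wild-type cells, and Ltf, at -2.49 and 1.91. The difference between the chips was not tested.

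Sftpc was also above 10000 TPM in 4 wells outside the comparison. They were the off-chip positive control at 16709 TPM, a well labelled knockout with few genes (site 52) at 16045 TPM, a well labelled knockout with a debris or valve remark (site 46) at 51141 TPM, and a wild-type well with few genes (site 84) at 41773 TPM. The well of site 46 had 3932 detected genes with Scgb1a1 at 309356 TPM.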

How the results depend on the processing

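The alveolar list median was positive on both chips under all alternatives run. It was lowest with a pseudocount of 10, at 1.62 for cells labelled knockout and 1.56 for wild-type cells with 14 and 8 members past the threshold, and highest with a pseudocount of 0.1, at 4.59 and 3.60. When single dual cells were left out it was 3.06 to 3.39 and 2.44 to 2.96. Counts of genes past the size threshold depended on low values. With a pseudocount of 10 they were 23 higher and 7 lower for cells labelled knockout, 27 higher and 1 lower for wild-type cells, and 12 higher on both chips. With a pseudocount of 0.1 they were 349 and 260, 1373 and 36, and 165. With medians over cells they were 309 and 265, 845 and 36, and 151. With TPM rescaled without spike-ins, Scgb1a1 and Sftpc, 159 were higher and 94 lower for cells labelled knockout, 630 higher and 13 lower for wild-type cells, and 76 higher on both chips. At 2000 or more detected genes the wild-type counts were 234 higher and 23 lower. With club-only cells in the dual range of detected genes, a choice made after seeing the data, they were 200 and 67, and 36 genes were higher on both chips, 35 of them among the 48. Lower on both chips were 5 genes with a pseudocount of 0.1, 7 with medians over cells, 2 with that range of detected genes, and 1 each with rescaled TPM, with 2000 or more detected genes and without 1 wild-type dual cell, against 0 otherwise.

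Leaving out single dual cells gave 83 to 103 higher and 60 to 82 lower genes for cells labelled knockout, 369 to 443 higher and 5 to 11 lower for wild-type cells, and 43 to 52 higher on both chips. Differences in detected genes then ran from 338 to 371 and from 588 to 1152, and club list medians from -0.44 to -0.28 and from -0.05 to 0.54. The wild-type club list median also turned negative with medians over cells (-0.14). Of the values of named genes under the alternatives, 1750 moved by less than the SD over dual cells or not at all. A further 67 moved by more, and 0 changed sign past the threshold. Some alternatives could not move a value, since dropping the filter alters no difference and some limits kept the same cells. The SD is a wide measure: wild-type Acsl4, with an SD of 1.66, fell from 1.61 to 0.13 in the matched range of detected genes and is among the 1750. The tally is therefore no measure of stability. No paired analysis was possible because cell numbers only name cells in accession order and the differences come from no test. Depth per cell is unknown, so an undetected gene is not shown to be absent.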
